A study of Mus musculus with 6 samples.

Results

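Glycolysis and the response to low oxygen were described in BM MSCs through 38 genes. They comprised 23 genes of glycolysis, which encode glucose and lactate transporters, the enzymes from glucose to lactate and 3 switches that set the flux, and 15 genes of the hypoxia response, which encode the hypoxia-inducible factors (HIF), their oxygen sensors and other genes that low oxygen induces. The members were found by gene name among the 56980 genes of the deposited table. The names matched 39 entries, because *Aldoa* had a second gene model (at most 8 counts in a sample), which was set aside. Of the 38 members, 37 passed the filter on low counts, as did 15190 genes in all. The exception was *Hif3a*, with at most 3 counts in a sample.

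The cells came from female mice whose ovaries were removed (OVX) at an age of 8 weeks, so that both groups lacked ovarian estrogen. The gut microbiota of the recipients was depleted with antibiotics, and the mice then received FMT for 8 weeks from sedentary donors (TranspCtrl group, n = 3) or from exercised donors (TranspExer group, n = 3). Marrow flushed from femurs and tibias was kept in culture for 7 days and washed repeatedly, with no step described that sorts cells, and the mouse strain is not given. Nothing states that the 3 samples of a group came from separate animals, so p-values measure the spread between these samples, which may be technical.

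Glycolysis splits glucose into pyruvate in the cytosol and yields ATP without oxygen, and lactate dehydrogenase then turns pyruvate into lactate, which leaves the cell. HIF is a pair of proteins, of which the α subunit is hydroxylated by oxygen-dependent enzymes and destroyed when oxygen is plentiful. In low oxygen the α subunit persists, enters the nucleus and binds the core letters RCGTG near its target genes, which include most glycolytic enzymes. Marrow is a tissue of low oxygen, and its stromal cells are known to lean on glycolysis. The RNA here came from cells after culture in an incubator, for which no oxygen level is given.

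The promoters of the members whose values carry the comparison are shown first, because HIF acts through short letters in such windows. RefSeq promoter windows (GRCm38.p6) were matched by symbol for 34 of the 38 members, with 51 windows in all, since some genes have several start sites. *Epas1*, *Bnip3l*, *Slc2a3* and *Ndrg1* were not matched. The 250 bases before each start were searched on both strands for ACGTG and GCGTG, the forms that RCGTG can take. Capitals mark each match, and CACGT and CACGC are the same letters read on the other strand. CACGTG, the E-box that other factors bind, holds ACGTG on both strands and counted as 2 matches. *Bnip3*, *Ankrd37*, *Ddit4*, *Aldoc* and *Pgk1* are members that were lower in the TranspExer group and had matches, *Tpi1* is one that was lower without a match in this window, and *Adm* was higher. *Aldoc* has a further window with 1 match, and its first is shown. All read 5′ to 3′ on the strand of the gene.
Bnip3: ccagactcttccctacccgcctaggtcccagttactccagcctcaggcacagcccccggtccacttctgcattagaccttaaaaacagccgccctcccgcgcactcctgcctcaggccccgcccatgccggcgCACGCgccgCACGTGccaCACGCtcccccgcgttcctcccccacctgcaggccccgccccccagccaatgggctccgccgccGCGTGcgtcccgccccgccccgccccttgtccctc
Ankrd37: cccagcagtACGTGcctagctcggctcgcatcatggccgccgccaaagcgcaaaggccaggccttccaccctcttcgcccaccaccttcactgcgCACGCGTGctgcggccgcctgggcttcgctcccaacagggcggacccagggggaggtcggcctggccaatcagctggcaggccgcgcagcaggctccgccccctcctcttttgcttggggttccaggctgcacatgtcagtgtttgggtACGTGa
Ddit4: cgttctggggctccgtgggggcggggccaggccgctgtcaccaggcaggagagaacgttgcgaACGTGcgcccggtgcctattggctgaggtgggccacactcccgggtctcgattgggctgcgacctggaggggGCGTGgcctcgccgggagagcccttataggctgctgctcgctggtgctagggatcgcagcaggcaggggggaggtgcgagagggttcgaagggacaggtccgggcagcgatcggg
Aldoc: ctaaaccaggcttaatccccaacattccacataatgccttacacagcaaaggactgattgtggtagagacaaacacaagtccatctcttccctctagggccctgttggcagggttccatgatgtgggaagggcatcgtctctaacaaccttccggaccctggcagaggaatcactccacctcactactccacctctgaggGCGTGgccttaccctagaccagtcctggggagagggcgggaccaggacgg
Pgk1: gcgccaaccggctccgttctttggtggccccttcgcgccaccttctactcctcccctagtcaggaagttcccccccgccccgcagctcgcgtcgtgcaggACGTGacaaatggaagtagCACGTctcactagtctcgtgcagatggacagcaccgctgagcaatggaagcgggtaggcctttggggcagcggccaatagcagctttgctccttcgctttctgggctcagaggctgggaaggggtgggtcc
Tpi1: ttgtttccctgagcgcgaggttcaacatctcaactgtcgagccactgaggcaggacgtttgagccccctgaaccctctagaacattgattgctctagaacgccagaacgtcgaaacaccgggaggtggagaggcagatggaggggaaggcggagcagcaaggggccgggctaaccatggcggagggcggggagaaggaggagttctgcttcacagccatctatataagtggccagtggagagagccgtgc
Adm: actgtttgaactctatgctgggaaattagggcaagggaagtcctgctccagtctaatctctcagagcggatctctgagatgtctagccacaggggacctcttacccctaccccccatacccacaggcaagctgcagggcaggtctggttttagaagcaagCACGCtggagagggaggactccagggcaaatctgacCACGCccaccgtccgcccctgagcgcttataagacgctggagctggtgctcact

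The window of *Bnip3* lies at chr7:138909507-138909756 on the minus strand and held 5 matches, of which 2 were ACGTG in 1 E-box and 3 were GCGTG. That of *Ankrd37* (chr8:45999851-46000100, minus strand) held 2 of each, and that of *Ddit4* (chr10:59951771-59952020, minus strand) 1 of each. The *Pgk1* window (chrX:106186850-106187099, plus strand) held 2 ACGTG, and the *Aldoc* window (chr11:78322823-78323072, plus strand) 1 GCGTG. No match stood in the *Tpi1* window (chr6:124814159-124814408, minus strand). The *Adm* window (chr7:110627407-110627656, plus strand) held 2 GCGTG. Over all members, 39 of 51 windows (76.5%) held either form, against 38.6% of all 32851 windows and 53.7% of the 13949 windows of genes tested. The ACGTG form stood in 45.1% of the members' windows against 20.9% for tested genes, GCGTG in 49% against 42.6%, and CACGTG in 11.8% against 8.02%. Among windows of members that were lower in the TranspExer group, 25 of 31 held a match (80.6%), and among members that passed in neither direction 12 of 18 did (66.7%). Between the same sets, ACGTG stood in 41.9% and 55.6% of windows and GCGTG in 54.8% and 33.3%, so the forms lay in opposite order, and no test was made. Windows of 1 gene can overlap, and a match is a description of letters, not a binding site.

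Depth ranged from 17647682 to 21319228 counts per sample, so that 3 counts were worth 0.139 to 0.174 CPM (counts scaled to a common library size, here by TMM), a limit of counting error only. TranspCtrl replicate 1 stood apart from the other TranspCtrl samples. Its counts gave a mean chi-square over genes (1 where samples differ by counting error alone) of 62.3 and 56.6 against TranspCtrl replicates 2 and 3, while other pairs within a group gave 3.81 to 7.82. Over the 37 members tested, its log2 CPM lay 0.22 (median size) from the mean of the other TranspCtrl samples, which differed from each other by 0.05, and 7 members lay more than 0.5 away. Over all 15190 genes these sizes were 0.27 and 0.1, and 3585 genes lay more than 0.5 away. In absolute size the members thus stood apart no more than all genes. Set against the difference between the other TranspCtrl samples, the members stood apart more. The counts of called genes are therefore also given without TranspCtrl replicate 1 for most lists. With 3 samples a group, an exact permutation test of 1 gene could not give a p-value under 0.1, and the p-values below come from edgeR's quasi-likelihood test, adjusted by Benjamini-Hochberg over all genes tested.

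Of the 37 members tested, 20 were lower in the TranspExer group and 2 were higher at an adjusted p-value under 0.05, and 15 passed in neither direction. Over all genes tested, 15.5% were lower and 16.6% were higher. With the fold change of 2 required as well, as for the DEGs of the study's methods, *Aldoc*, *Bnip3* and *Ankrd37* were lower (5.28% of all genes) and *Epas1* was higher (3.5% of all genes). The groups did not overlap for 25 members, 22 of them lower (25.1% of all genes) and 3 higher (27.3% of all genes). The median log2 fold change of TranspExer over TranspCtrl was -0.27 for the members and -0.02 for all genes. Without TranspCtrl replicate 1, the same 20 members and another 6 were lower and 3 were higher, while 3041 (19.6%) of the 15494 genes then tested were lower and 3417 (22.1%) higher. Leaving out TranspCtrl replicate 2 or 3 or TranspExer replicate 1, 2 or 3 gave 15, 15, 14, 13 and 14 lower members, while the lower share of all genes was 13.5%, 12%, 9.06%, 8.48% and 8.72%. With all 6 samples, counts of all genes were 2361 lower and 2523 higher, and they became 2962 lower and 2013 higher when samples were scaled by library size only, and 2901 lower and 2052 higher by upper quartiles. Both scalings kept the members' 20 calls and added *Pkm* and *Pfkfb3*.

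**Figure D1:**
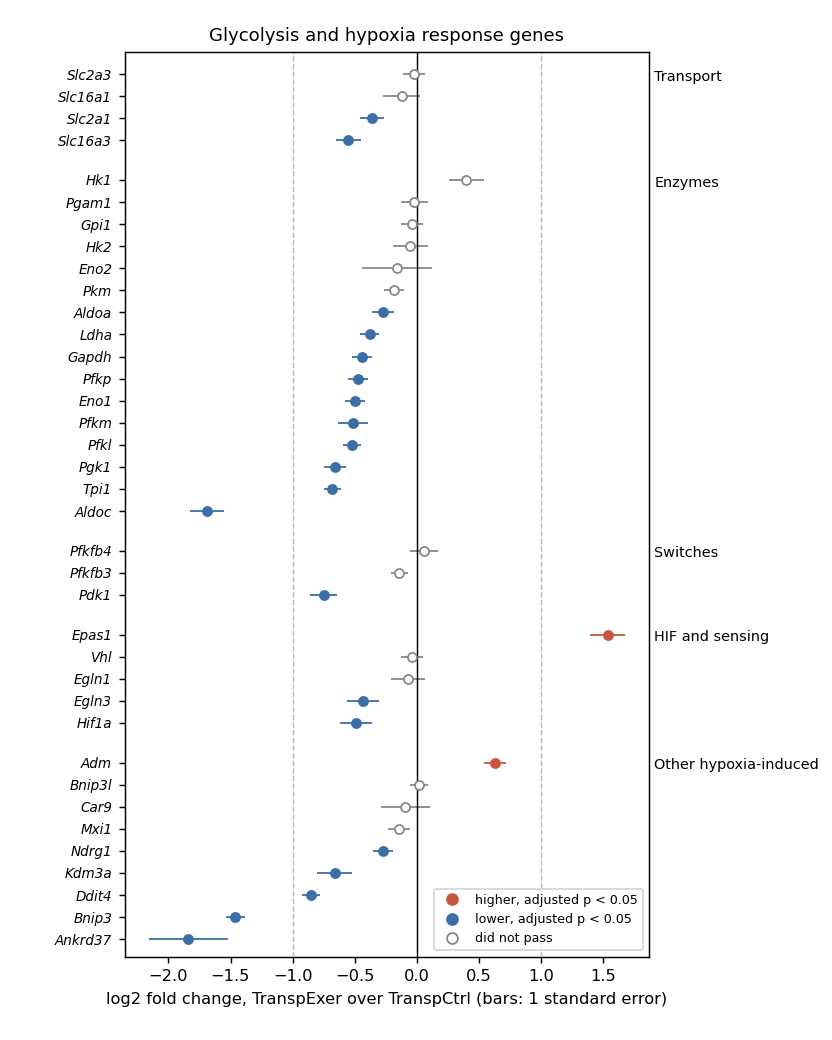
Log2 fold change of TranspExer over TranspCtrl for the 37 members tested, grouped by role, with bars of 1 standard error. Filled points passed an adjusted p-value of 0.05, and dashed lines mark a fold change of 2, which *Aldoc*, *Bnip3* and *Ankrd37* passed downwards and *Epas1* upwards.

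Transport at both ends of the pathway was partly lower. Of the 4 transporters, *Slc2a1* and *Slc16a3* were lower (50%, against 15.5% of all genes) and none was higher. *Slc16a3*, which encodes the lactate exporter MCT4, measured 160, 201 and 199 CPM in TranspCtrl samples and 130, 126 and 127 CPM in TranspExer samples, so the groups did not overlap (log2 fold change -0.55, SE 0.1, adjusted p = 0.00586). *Slc2a1*, which encodes the widespread glucose transporter GLUT1, had a mean of 120 ± 14.3 CPM (SD, n = 3) in the TranspCtrl group and 93.4 ± 4.29 CPM in the TranspExer group (log2 fold change -0.36, SE 0.1, adjusted p = 0.0299). This call was lost when any 1 sample other than TranspCtrl replicate 1 was left out (adjusted p 0.0653 to 0.0941). *Slc2a3*, for the high-affinity transporter GLUT3, and *Slc16a1*, for the lactate carrier MCT1, overlapped between groups, with log2 fold changes of -0.02 and -0.12. Without TranspCtrl replicate 1, *Slc16a1* was lower by the test (-0.30, adjusted p = 0.00124). That made 3 transporters lower (75%, against 19.6% of all genes in that fit).

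The enzymes from hexokinase to lactate dehydrogenase were lower at most steps. Of 16 enzyme genes, 10 were lower (62.5%, against 15.5% of all genes tested), and none was higher (16.6% of all genes) by edgeR at the adjusted p-value (1 at an unadjusted p under 0.05, and 1 by DESeq2, in each case *Hk1*). Their median log2 fold change was -0.41, and without TranspCtrl replicate 1, 12 were lower (75%, against 19.6%) and 1 was higher (6.25%, against 22.1%). The summed level of the 16 genes was 11400, 12100 and 12300 CPM in TranspCtrl samples and 9390, 9330 and 9390 CPM in TranspExer samples. The TranspExer mean was 78.6% of the TranspCtrl mean, and no TranspExer sample reached the lowest TranspCtrl sample. In raw counts, without TMM, these genes took 1.21% to 1.24% of a TranspCtrl sample and 0.907% to 0.909% of a TranspExer sample.

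None of the members of the first steps, up to fructose 6-phosphate, passed the test. *Hk3*, a hexokinase gene outside the members, was higher without overlap, from 126 ± 11.4 to 220 ± 4.58 CPM (log2 fold change 0.8, SE 0.09, adjusted p = 0.00051). *Hk1*, which encodes the hexokinase of most tissues, had 147 ± 27.5 CPM in the TranspCtrl group and 193 ± 13.8 CPM in the TranspExer group, with no overlap, and missed the threshold (log2 fold change 0.40, SE 0.14, adjusted p = 0.0612). It passed with DESeq2 (adjusted p = 0.0365), without the filter on low counts (0.0295), without TranspCtrl replicate 1 (0.25, adjusted p = 0.0067) and without TranspCtrl replicate 2 (0.50, adjusted p = 0.0448). *Hk2*, the insulin- and HIF-responsive hexokinase, overlapped (-0.05), and without TranspCtrl replicate 1 it was lower (-0.20, adjusted p = 0.00984). *Gpi1*, whose product isomerizes glucose 6-phosphate, overlapped as well (-0.04).

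Phosphofructokinase commits the sugar to glycolysis, and its 3 genes were all lower. *Pfkl*, the liver-type subunit, measured 202, 211 and 212 CPM in TranspCtrl samples and 145, 145 and 147 CPM in TranspExer samples (log2 fold change -0.52, SE 0.07, adjusted p = 0.00143). *Pfkm*, the muscle-type subunit, measured 16.1, 19.4 and 18.1 CPM against 12.3, 11.6 and 13.7 CPM (-0.51, SE 0.12, adjusted p = 0.0131). The groups were apart for both genes. The *Pfkm* call was lost without TranspExer replicate 1 (adjusted p = 0.0518) or replicate 2 (0.0590). *Pfkp*, the platelet-type subunit, fell by 0.47 on the log2 scale (SE 0.08, adjusted p = 0.00432). *Pfkm* (mean of 301 counts) overlaps *Senp1* on the opposite strand, which had a mean of 972 counts and was higher (0.39, adjusted p = 0.0123). *Pfkp* overlaps *Pitrm1* likewise, which did not pass (0.12, adjusted p = 0.321). The strand setting of the counting is not given in the sources used here, so reads of such pairs may have been shared.

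At the aldolase step, *Aldoc*, the brain-type aldolase, had the largest fall among the glycolysis members. It measured 18.3, 16 and 14.5 CPM in TranspCtrl samples and 4.6, 4.94 and 5.56 CPM in TranspExer samples (log2 fold change -1.69, SE 0.14, adjusted p = 0.000137). Every TranspExer sample lay far below every TranspCtrl sample. *Aldoa*, which supplies nearly all aldolase transcripts here, went from 1200 ± 79.5 to 988 ± 1.25 CPM (-0.27, SE 0.09, adjusted p = 0.0415), a call that was lost when any 1 sample other than TranspCtrl replicate 1 was left out (adjusted p 0.0968 to 0.129). *Tpi1*, which encodes triosephosphate isomerase, measured 610, 583 and 598 CPM against 372, 367 and 377 CPM (-0.68, SE 0.07, adjusted p = 0.00051). Its groups were far apart, with the TranspExer mean at 62.3% of the TranspCtrl mean.

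The genes of the steps that yield NADH and ATP, and of enolase and lactate dehydrogenase, come next. *Gapdh*, often taken as a constant reference, was not constant here. It measured 2180, 2150 and 2300 CPM in TranspCtrl samples and 1630, 1660 and 1600 CPM in TranspExer samples, without overlap (log2 fold change -0.44, SE 0.08, adjusted p = 0.00605). *Pgk1*, for phosphoglycerate kinase, measured 980, 1090 and 1090 CPM against 679, 640 and 679 CPM (-0.66, SE 0.09, adjusted p = 0.00116). *Eno1*, for the common enolase, measured 1790, 1930 and 1930 CPM against 1360, 1330 and 1300 CPM (-0.50, SE 0.08, adjusted p = 0.00339). The groups were well apart for these 2 genes also. *Ldha*, whose product makes lactate, went from 1210 ± 10.2 to 931 ± 27.6 CPM (-0.38, SE 0.08, adjusted p = 0.00893).

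The other enzymes near the end of the pathway did not pass. *Pkm*, for pyruvate kinase, had 1890 ± 55.9 and 1670 ± 44.3 CPM with no overlap (log2 fold change -0.18, SE 0.08, adjusted p = 0.125), and it passed with upper-quartile scaling (-0.26, adjusted p = 0.0293), with library size only (-0.27, 0.0266) and without TranspCtrl replicate 1 (-0.21, 0.00199). *Pgam1*, for phosphoglycerate mutase, overlapped (-0.02, SE 0.11), as did the neuronal enolase *Eno2* (-0.16, SE 0.28), which had 34 to 73 counts a sample. Several glycolytic genes have processed copies elsewhere in the genome. Adding the counts of the named copies left the 8 member calls so tested on the same side of the threshold.

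**Figure D2:**
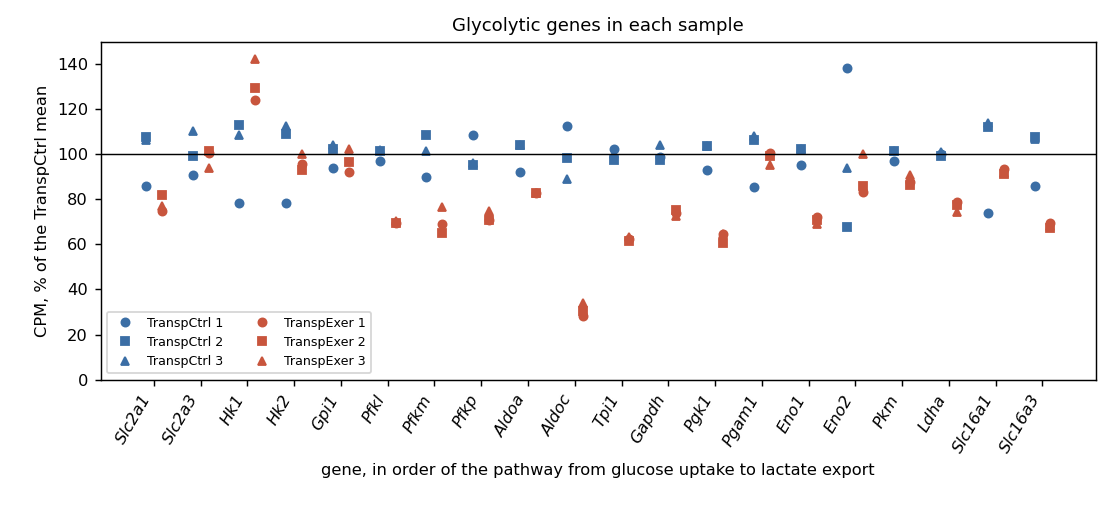
CPM of 20 transporter and enzyme genes in each sample, as a percentage of the mean of the TranspCtrl samples (line at 100), in the order of the pathway. Points are single samples, and the TranspExer points lie below all TranspCtrl points for 13 of these genes, with *Aldoc* lowest, and above them for *Hk1*.

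The 3 switches split. *Pdk1*, a HIF target whose kinase keeps pyruvate out of the mitochondrion, measured 93.7, 117 and 119 CPM in TranspCtrl samples and 68.8, 62.8 and 65.3 CPM in TranspExer samples (log2 fold change -0.75, SE 0.11, adjusted p = 0.00177), and the groups did not overlap. *Pfkfb3*, whose product makes the activator of phosphofructokinase, had -0.14 (SE 0.07, adjusted p = 0.181), and *Pfkfb4*, its relative, had 0.06 (SE 0.11, adjusted p = 0.686). *Pfkfb3* passed with upper-quartile scaling (-0.22, adjusted p = 0.0385), with library size only (-0.22, adjusted p = 0.0364) and without TranspCtrl replicate 1 (-0.16, adjusted p = 0.0358). Over all 23 glycolysis members, 13 were lower (56.5%, against 15.5% of all genes) and 0 higher (against 16.6%), with a median of -0.36. These counts were 17 (73.9%, against 19.6%) and 1 (4.35%, against 22.1%) without TranspCtrl replicate 1.

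The HIF α subunits moved in opposite directions. *Epas1*, which encodes HIF-2α (gene at chr17:86753700-86833410), measured 40.1, 58.4 and 56.5 CPM in TranspCtrl samples and 144, 147 and 161 CPM in TranspExer samples. The TranspExer mean was 291% of the TranspCtrl mean, and the groups were far apart (log2 fold change 1.54, SE 0.14, adjusted p = 0.000258). *Hif1a*, which encodes HIF-1α (gene at chr12:73901375-73947530), measured 382, 544 and 509 CPM against 334, 335 and 355 CPM. All TranspExer samples lay below the lowest TranspCtrl sample, replicate 1 (-0.49, SE 0.13, adjusted p = 0.0251). The *Hif1a* call was lost when any 1 sample other than TranspCtrl replicate 1 was left out (adjusted p 0.0637 to 0.0846), and *Epas1* passed in each of these fits. *Hif3a*, the least studied α subunit, had 0, 3 and 2 counts in TranspCtrl samples and 1, 2 and 1 in TranspExer samples, at or below the floor of 3 counts, so no difference was detectable at this depth.

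Per kilobase of exon, *Epas1* made up 9.95%, 10.2% and 10.5% of the α subunit transcripts in TranspCtrl samples and 31.2%, 31.6% and 32.3% in TranspExer samples. The share varied little within a group, although the levels of both genes were lower in TranspCtrl replicate 1. With the gene lengths of the deposited table the means were 8.44% and 27.4%. Of the oxygen sensors, *Egln3*, a HIF hydroxylase that HIF itself induces, went from 22.8 ± 3.78 to 16.9 ± 0.641 CPM (log2 fold change -0.43, SE 0.13, adjusted p = 0.0403). That call was lost when any 1 sample other than TranspCtrl replicate 1 was left out (adjusted p 0.0887 to 0.120). *Egln1*, the main HIF hydroxylase, and *Vhl*, which marks hydroxylated HIF for destruction, overlapped between groups (-0.07 and -0.04), and without TranspCtrl replicate 1 *Egln1* was lower (-0.23, adjusted p = 0.011).

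*Epas1* is known to be abundant in endothelium, and endothelial markers were higher in the same samples. All 10 of the markers examined were higher (16.6% of all genes), 8 of them as DEGs (3.5% of all genes), and their summed level was 222 to 269 CPM in TranspCtrl samples and 730 to 789 CPM in TranspExer samples. *Cdh5*, the endothelial cadherin, had the highest mean over all 6 samples and went from 70.2 ± 17.7 to 284 ± 23.1 CPM. No marker of that list was at 0 in all samples. In these bulk samples, a change in the number of cells of a type and a change in RNA per cell cannot be told apart, for *Epas1* as for each gene here, and the part of endothelial cells in the result was not tested.

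**Figure D3:**
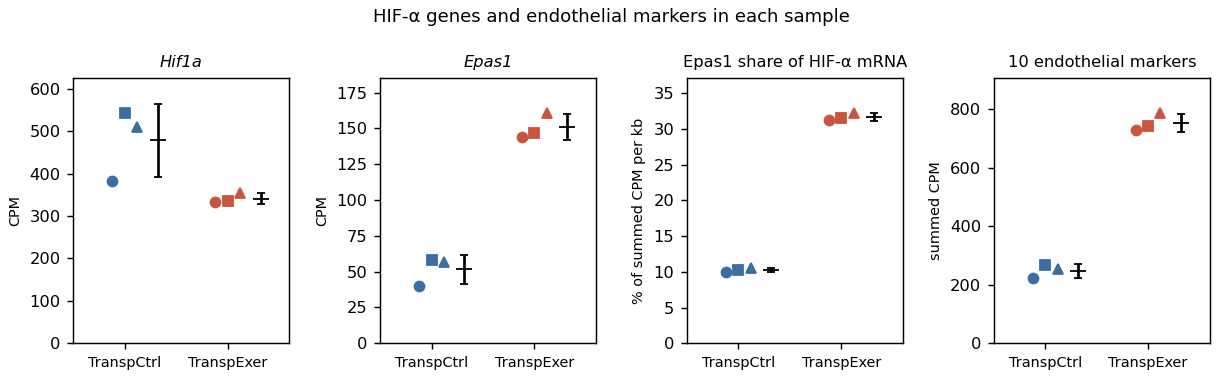
CPM of *Hif1a* and *Epas1*, the share of *Epas1* in the summed CPM per kilobase of *Hif1a*, *Epas1* and *Hif3a*, and the summed CPM of 10 endothelial markers, in each sample, with mean and SD of 3 samples. The TranspExer samples lie below the TranspCtrl samples for *Hif1a* and above them in the other panels, where the *Epas1* share is 31.2% to 32.3% against 9.95% to 10.5%.

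The other hypoxia-induced genes were mostly lower, with *Bnip3* and *Ankrd37* as the largest changes and *Adm* the other way. Of these 9 genes, 5 were lower (55.6%, against 15.5% of all genes) and 1 was higher (11.1%, against 16.6%), and their median log2 fold change was -0.27. With TranspCtrl replicate 1 left out, 6 were lower (66.7%, against 19.6%) and 1 was higher (11.1%, against 22.1%). Without TranspExer replicate 2 or 3, *Bnip3*, *Ddit4* and *Ankrd37* alone stayed lower, while 8.48% and 8.72% of all genes were lower. *Bnip3*, which drives the removal of mitochondria by autophagy in low oxygen, measured 160, 144 and 155 CPM in TranspCtrl samples and 60, 54.3 and 52.7 CPM in TranspExer samples. The groups were far apart, with the TranspExer mean at 36.4% of the TranspCtrl mean (-1.46, SE 0.08, adjusted p = 4.66e-05). Its paralog *Bnip3l*, which serves the same process in maturing red cells, had 147 ± 6.5 and 149 ± 2.41 CPM (0.02, SE 0.07, adjusted p = 0.870). *Bnip3* thus made up 66.1%, 62% and 63.7% of the pair per kilobase in TranspCtrl samples and 40.4%, 38.7% and 37.6% in TranspExer samples.

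*Ankrd37*, a small ankyrin repeat gene that HIF-1 induces, measured 6.04, 3.23 and 3.53 CPM in TranspCtrl samples and 0.889, 1.51 and 1.19 CPM in TranspExer samples (log2 fold change -1.84, SE 0.32, adjusted p = 0.00437). These rest on 124, 63 and 76 counts against 17, 26 and 24 counts. The groups did not overlap, and without TranspCtrl replicate 1, the highest sample, the value was -1.50 (adjusted p = 0.000486). It overlaps *Ufsp2* on the opposite strand, which had a mean of 832 counts and was lower as well (-0.49, adjusted p = 0.00604). *Ddit4*, for the stress protein REDD1 that restrains mTORC1, measured 68, 69 and 71.7 CPM against 39.5, 38 and 38.4 CPM (-0.85, SE 0.07, adjusted p = 0.000138). The spread within either group was small beside this gap.

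*Kdm3a*, an oxygen-dependent histone demethylase that HIF induces, measured 66.2, 45.7 and 46.2 CPM in TranspCtrl samples and 33.7, 32.6 and 33.5 CPM in TranspExer samples (log2 fold change -0.66, SE 0.14, adjusted p = 0.0114). TranspCtrl replicate 1 was the highest sample, and without it the value was -0.47 (adjusted p = 6.25e-05). The call was lost without TranspExer replicate 2 (0.0538) or replicate 3 (0.0521). *Ndrg1*, a stress-induced gene, had -0.27 (SE 0.08, adjusted p = 0.0438), and lost its call with DESeq2 (0.0551), without the filter on low counts (0.0715) and without any 1 sample other than TranspCtrl replicate 1 (0.0821 to 0.132). *Mxi1*, which opposes MYC, had -0.14 (adjusted p = 0.294), and without TranspCtrl replicate 1 it was lower (-0.22, adjusted p = 0.0121). *Car9*, for the surface carbonic anhydrase that is a classical HIF-1 target, had 42 to 69 counts a sample and overlapped (-0.09, SE 0.2, adjusted p = 0.750).

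*Adm*, for the vasodilator peptide adrenomedullin, measured 23.7, 24.4 and 24.1 CPM in TranspCtrl samples and 41.2, 34.8 and 35.3 CPM in TranspExer samples (log2 fold change 0.63, SE 0.09, adjusted p = 0.00212). It was the single member of this role that was higher, with no overlap. Endothelial cells are a known source of adrenomedullin, and the endothelial markers given above moved with it, whose part was not tested. Over all 14 hypoxia response members tested, 7 were lower (50%, against 15.5% of all genes) and 2 higher (14.3%, against 16.6%), with a median of -0.20. Without TranspCtrl replicate 1, 9 were lower (64.3%, against 19.6%) and 2 higher (14.3%, against 22.1%), while without TranspCtrl replicates 2 or 3 or TranspExer replicates 1, 2 or 3, the lower count was 4, 4, 4, 3 and 3. The lower share of all genes in these 5 fits, given above, went down as well, to between 8.48% and 13.5%.

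**Figure D4:**
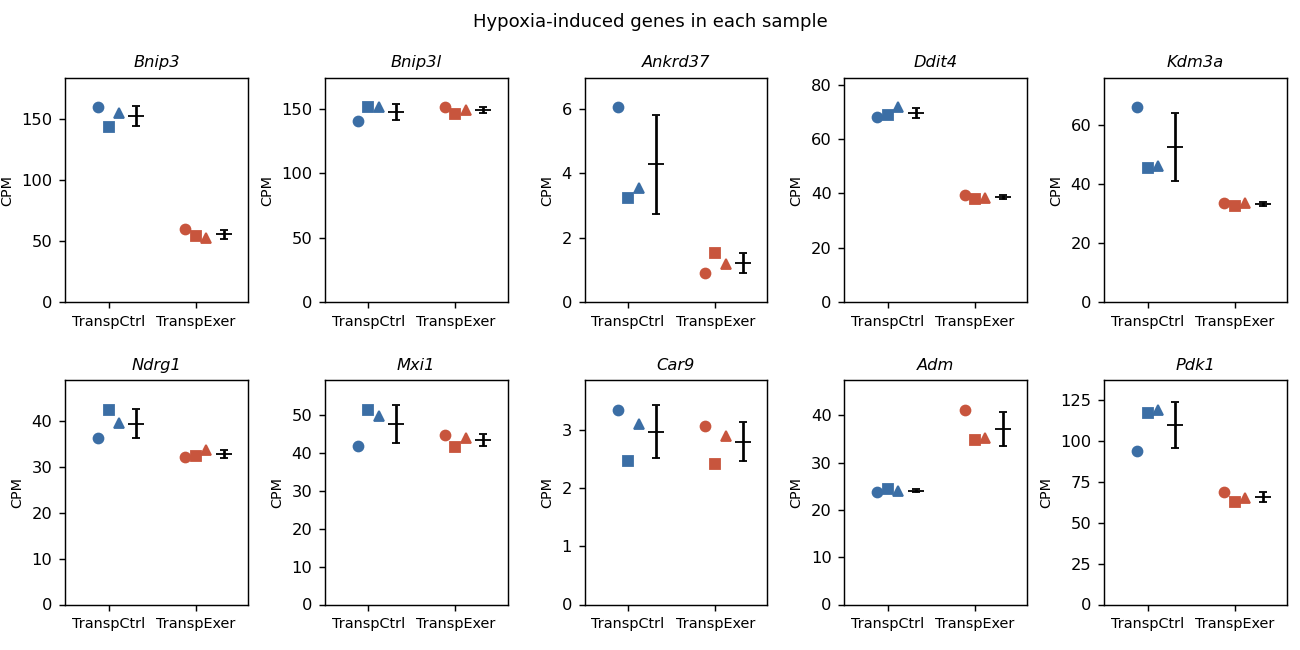
CPM of the 9 other hypoxia-induced members and of *Pdk1* in each sample, with mean and SD of 3 samples per group. *Bnip3*, *Ankrd37*, *Ddit4*, *Kdm3a*, *Ndrg1* and *Pdk1* are lower in all TranspExer samples than in any TranspCtrl sample, *Adm* is higher in all, and *Bnip3l*, *Mxi1* and *Car9* overlap.

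Within some families the members' shares differed between the groups. Per kilobase of exon, *Hk1* went from 42.7% ± 0.918 (SD, n = 3) to 50.4% ± 1.3 of the *Hk1* and *Hk2* transcripts, *Slc16a1* from 24% ± 2.07 to 30% ± 0.084 of *Slc16a1* and *Slc16a3* transcripts, and *Slc2a3* from 13.5% ± 0.822 to 16.4% ± 0.709 of *Slc2a1* and *Slc2a3* transcripts. *Aldoc* went from 1.21% ± 0.223 to 0.453% ± 0.0434 of *Aldoa* and *Aldoc* transcripts. These 4 shares were apart between the groups, and they were not tested. The shares of *Pfkl*, *Pfkm* and *Pfkp* overlapped, with *Pfkl* at 69.4% ± 0.875 and 68.9% ± 0.952. The exon length chosen moved the levels of such shares (*Hk1* from 60.4% to 67.6% with the lengths of the deposited table), and their direction was the same with both lengths and without scaling by length.

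The same test was read for other genes of both pathways, from lists drawn up with earlier results of these data known. Of 38 other genes of glucose metabolism, 29 were tested, 7 were lower (24.1%) and 5 were higher (17.2%), against 15.5% and 16.6% of all genes tested, with a median log2 fold change of 0. Without TranspCtrl replicate 1, 30 were tested, of which 9 were lower (30%) and 6 higher (20%), against 19.6% and 22.1% of all genes. The single DEG (5.28% of all genes were lower as DEGs and 3.5% higher) was *Pgam2*, the muscle-type phosphoglycerate mutase, at 4.14 ± 1.78 CPM in the TranspCtrl group and 0.637 ± 0.195 CPM in the TranspExer group (-2.69, SE 0.43, adjusted p = 0.00294). Of 48 other hypoxia response genes, 46 were tested, 18 were lower (39.1%) and 8 were higher (17.4%), with a median of -0.30, and 23 were lower (50%) and 8 higher (17.4%) without TranspCtrl replicate 1. The DEGs were 7 lower and 3 higher, against the same DEG shares of all genes, and the 6 with the smallest adjusted p-value are named here.

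Among the genes that fell, *P4ha2*, a collagen prolyl hydroxylase, went from 223 ± 2.77 to 89.8 ± 4.27 CPM (log2 fold change -1.31, SE 0.07, adjusted p = 4.58e-05). *Plod2*, a collagen lysyl hydroxylase, went from 185 ± 8.69 to 79.3 ± 0.955 CPM (-1.22, SE 0.07, adjusted p = 4.96e-05). The transmembrane gene *Tmem45a* (-1.33, SE 0.11, adjusted p = 0.000149) and the secreted hormone gene *Stc2* (-1.53, SE 0.15, adjusted p = 0.000377) fell as well. In the other direction, *Plin2*, which coats lipid droplets, rose from 193 ± 11.6 to 591 ± 18 CPM (1.61, SE 0.08, adjusted p = 3.45e-05), and *Tfrc*, the transferrin receptor, from 235 ± 31.4 to 531 ± 18.1 CPM (1.17, SE 0.11, adjusted p = 0.000284). *Plin2* is also known to respond to lipid supply and *Tfrc* to iron. *P4ha2* and *Plod2* modify collagen, and stromal markers, given below, were partly lower as well. The part of such inputs or of cell types was not tested in either direction.

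**Figure D5:**
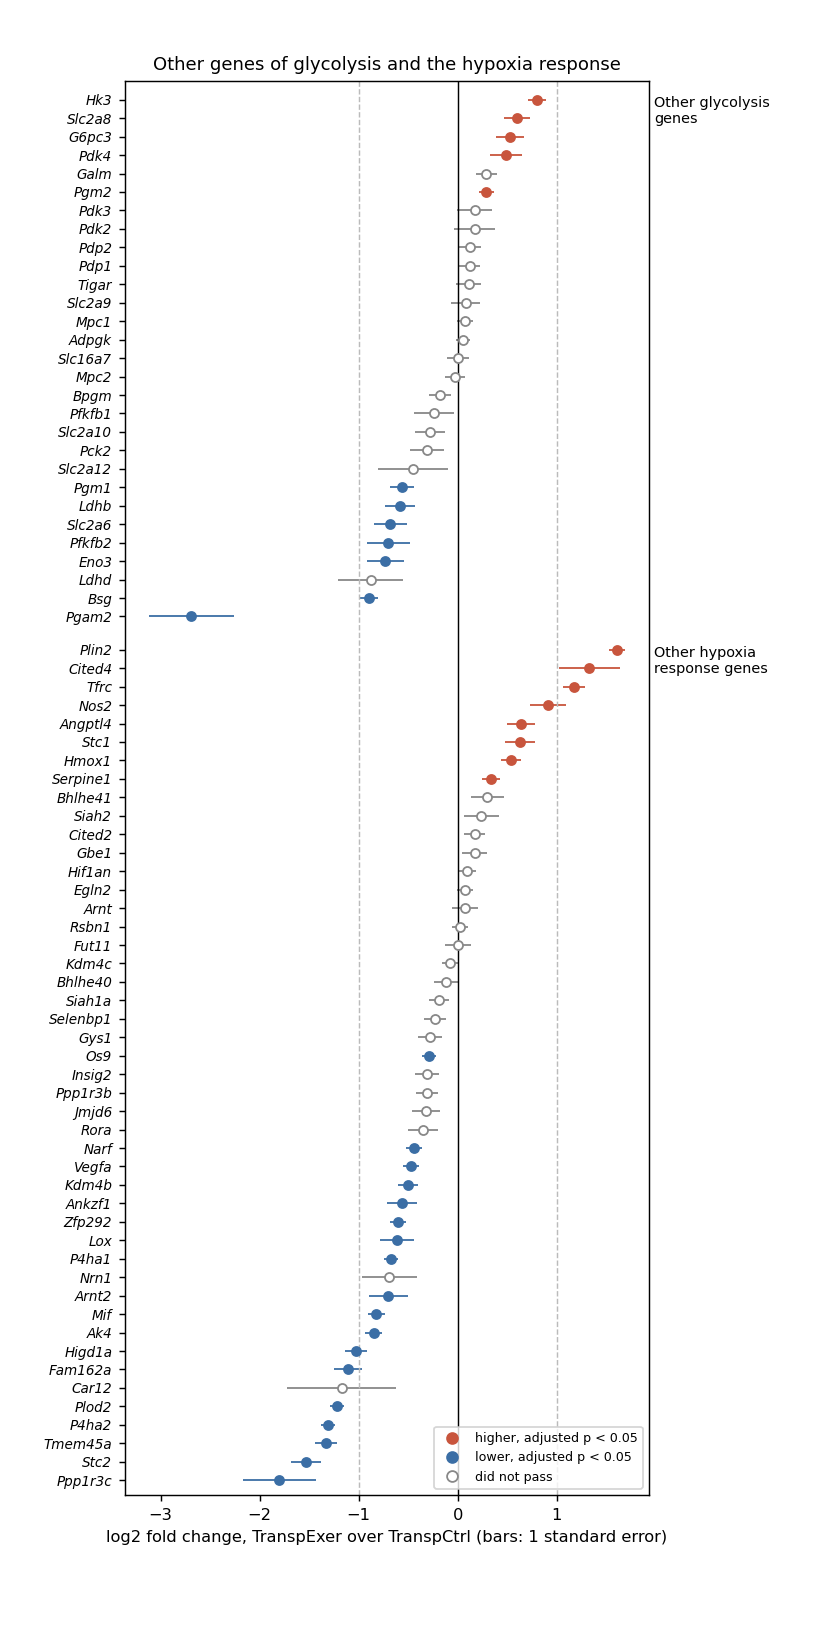
Log2 fold change of TranspExer over TranspCtrl for 29 other genes of glucose metabolism and 46 other hypoxia response genes, with bars of 1 standard error. Filled points passed an adjusted p-value of 0.05, 12 in the upper list and 26 in the lower, where *Stc2*, *Tmem45a* and *P4ha2* lie among the lowest and *Plin2* highest.

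The cultures held RNA of several cell types, some of which differed between the groups, and their part in the lower glycolytic and hypoxia-induced levels was not tested. Marker counts stand beside 15.5% lower and 16.6% higher among all genes tested. Of 12 stromal markers, 7 were lower (58.3%) and 3 higher (25%), and their sum overlapped between groups, at 14700 to 22900 CPM in TranspCtrl samples and 14200 to 15500 CPM in TranspExer samples. That overlap came from TranspCtrl replicate 1 (14700 CPM), and TranspCtrl replicates 2 and 3 (22900 and 22000 CPM) lay above every TranspExer sample. *Col1a1*, the highest, did not pass (-0.16, SE 0.26, adjusted p = 0.674). It measured 4560, 9950 and 9610 CPM in TranspCtrl samples and 6790, 7160 and 7710 CPM in TranspExer samples. Its low value in TranspCtrl replicate 1 weighs on the overlap of the stromal sums, and no sum without *Col1a1* was made. Of 10 B and plasma cell markers, 8 were lower (80%), with sums of 3180 to 4530 against 1090 to 1200 CPM, and *Igkc* was the highest. Of 10 osteoclast markers, 7 were lower (70%) and 2 higher (20%), with sums of 939 to 1010 against 622 to 637 CPM, and *Mmp9* had the highest mean over all samples. Of 12 macrophage markers, 2 were lower (16.7%) and 3 higher (25%). Their sum was 9680 to 14800 against 7960 to 8640 CPM, in which *Lyz2*, highest in TranspCtrl replicate 1, was the most abundant gene. Without *Lyz2*, the other 11 summed to 5690, 4780 and 4720 CPM in TranspCtrl samples and 5410, 5500 and 5370 CPM in TranspExer samples. The groups overlapped through TranspCtrl replicate 1 alone, and the other TranspCtrl samples lay below every TranspExer sample. Of 10 neutrophil markers, 3 were higher (30%) and 2 lower (20%), with sums of 3180 to 4270 against 5480 to 5700 CPM. *Ngp*, the most abundant, went from 1360 ± 64.9 to 1960 ± 114 CPM. The other higher ones, named after their values were seen, were *Mpo* (216 ± 57.2 to 1200 ± 73.3 CPM) and *Elane* (97.5 ± 22.9 to 435 ± 7.68 CPM), which encode enzymes of the primary granules of young neutrophils and their precursors. The lower ones were *Ly6g* (4.4 ± 0.45 to 3.01 ± 0.254 CPM) and *Cxcr2* (10.6 ± 1.1 to 7.21 ± 0.505 CPM), and 5 passed in neither direction. The higher neutrophil sum rests on *Ngp*, *Mpo* and *Elane*. When TranspCtrl replicate 1 was left out, macrophage markers counted 6 higher and 2 lower, neutrophil markers 6 higher and 1 lower, stromal markers 3 higher and 9 lower, and B and plasma cell markers 9 lower, while the endothelial and osteoclast counts were as with all samples. Over all genes of that fit, 22.1% were higher and 19.6% lower. Erythroid markers summed to 2.29 to 2.79 CPM in TranspCtrl samples and 4.63 to 5.6 CPM in TranspExer samples, with globins near 0. The single one tested was *Epor*, the erythropoietin receptor, which went from 1.63 ± 0.415 to 4.16 ± 0.646 CPM (log2 fold change 1.34, SE 0.24, adjusted p = 0.00492).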

How the data were processed

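BM MSCs of 3 TranspCtrl and 3 TranspExer samples were profiled by RNA-Seq, and samples were grouped by the sample labels. The authors deposited expected counts per gene, not normalized, of which 10.1% to 12.2% of values in a sample were not whole. The submitters' processing notes name the build mm10. The aligner, counting tool and test for DEGs are not given in the sources used here, and the labels name a stranded mRNA kit where the methods name a TruSeq kit.

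Expected counts were rounded, filtered (filterByExpr) and normalized by TMM, and genes were tested with edgeR 4.0.16 (quasi-likelihood, condition as the only term) in R 4.3.3, with Benjamini-Hochberg adjustment over 15190 genes. DEGs were genes with adjusted p under 0.05 that changed at least 2-fold. Standard errors are the log2 fold change over the root of F. CPM used unrounded counts. Coordinates and merged exon lengths came from GENCODE M21 (mm10), which held 52073 of the gene identifiers and lacked 4907. Promoter letters came from RefSeq.

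Values are given in every sample for members past the adjusted threshold with an absolute log2 fold change of at least 0.5, and for the HIF genes and *Gapdh*. Other genes of the pathways are named if they were DEGs, up to 6 a list by adjusted p-value. Of each marker list the gene most abundant over all samples is named. *Hk3* and the further neutrophil markers were named after their values were seen. The members and lists were chosen with earlier results of these data known.

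Alternatives were DESeq2 1.42.0, upper-quartile scaling, library size only, no filter or at least 1 CPM in at least 3 samples, the replicate number as a block, each sample left out in turn, named copies added, and shares without length scaling. The lengths of the deposited table, list counts without TranspCtrl replicate 1 and the macrophage sum without *Lyz2* were added after the data were seen. The fit was tested on simulated data.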

Additional observations from a re-analysis of the deposited data

How the results depend on the processing

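*Slc16a3*, *Pfkl*, *Pfkp*, *Aldoc*, *Tpi1*, *Gapdh*, *Pgk1*, *Eno1*, *Ldha*, *Pdk1*, *Bnip3*, *Ddit4* and *Ankrd37* stayed lower and *Epas1* and *Adm* higher past the threshold in every refit of the table. Calls of lower members ranged from 13 to 26 over the alternatives, against 20. With a sample left out, all genes counted 1315 to 3417 higher and 1325 to 3041 lower, hypoxia response members 3 to 9 lower, and glycolysis members 0 to 1 higher. DESeq2, no filter on low counts and the replicate block each gave 1 higher glycolysis member, *Hk1*. The median of the glycolysis members was -0.43 with upper quartiles and -0.44 with library size only. That of the hypoxia response members was -0.28 and -0.29, and with a sample left out -0.28 to -0.19.

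Same-numbered samples of the groups did not deviate together (correlations 0.02, 0 and 0.04), so the numbers were not taken as pairs. With the replicate block, 18 members were lower (48.6%, against 14.6% of all genes) and 3 higher (8.11%, against 16.4%): *Hk1* passed (0.41, adjusted p = 0.0316), and *Aldoa* (0.0789) and *Ndrg1* (0.0641) did not. No other member call changed with the block.

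Among members that did not pass, the sign turned with a sample left out, with ranges (in brackets, the sample whose omission turned it) of -0.09 to 0.06 for *Slc2a3* (TranspCtrl replicate 3, and 0 after rounding for TranspExer replicate 3), -0.20 to 0.04 for *Hk2* and -0.12 to 0.04 for *Pgam1* (TranspCtrl replicates 2 and 3), -0.36 to 0.15 for *Eno2* and -0.20 to 0.01 for *Car9* (TranspCtrl replicate 1), -0.23 to 0.05 for *Egln1* and -0.10 to 0.02 for *Vhl* (TranspCtrl replicate 3), and -0.01 to 0.17 for *Pfkfb4* (TranspCtrl replicate 3). *Pfkfb4* was -0.02 with upper quartiles and -0.03 with library size only. *Bnip3l* was -0.06 and -0.07 with the same scalings, -0.01 with the 1 CPM filter and -0.02 without TranspCtrl replicate 1. The cause of these moves was not tested. Depth limits *Hif3a*, and *Car9*, *Eno2* and *Ankrd37* rest on few counts.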
